A study of Homo sapiens with 4 samples.

Results

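The H/ACA box small nucleolar RNAs (snoRNAs) were followed in human RPE1 cells after siRNA knockdown of SAF-A, the nuclear RNA-binding protein encoded by HNRNPU. Members were the RefSeq rows whose symbols start with SNORA followed by a digit. This gave 104 snoRNAs of 25027 gene symbols in the deposited gene tables, taken from 112 rows. The question was how these short RNAs, and the genes in whose introns most of them lie, differed in level between the knockdown and control libraries.

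RPE1 is a retinal pigment epithelial line immortalised with telomerase. Cells received 10 nM of a Stealth siRNA by lipid transfection, either the maker's negative control or a single sequence against SAF-A, and total RNA was taken at 24 h or 48 h. There was 1 RNA-seq library for each of the 4 combinations of siRNA and time, so no comparison has a replicate check and no p-value is given. No untransfected cells and no further SAF-A siRNA were analysed here, so the effect of losing SAF-A and any other effect of that siRNA cannot be told apart. Among the markers of retinal pigment epithelium, 2 of 8, MITF and OTX2, averaged at least 1 FPKM, whereas the defining genes RPE65, RLBP1, BEST1, TYR, PMEL and TTR were below that level, and the list summed to between 7.36 and 13.4 FPKM. Of 5 epithelial markers, KRT8 and KRT18 passed 1 FPKM, and the list summed to 184, 161, 293 and 38.8 FPKM in control and SAF-A siRNA at 24 h and then at 48 h. Mesenchymal markers, 4 of 5 past 1 FPKM, summed to 2596, 2273, 1929 and 3623 FPKM in the same order. TERT, the telomerase gene used to immortalise the line, had 0.404, 0.243, 0.680 and 0.908 FPKM and so stayed below 1 FPKM. Markers of blood cells and neurons were also under 1 FPKM. The part of these marker differences at 48 h in the snoRNA values was not tested.

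H/ACA snoRNAs fold into a pair of hairpins joined by a hinge with the H box and followed by a tail with an ACA trinucleotide. They guide pseudouridine formation in ribosomal and spliceosomal RNA, and a few act in the cleavage of the ribosomal RNA precursor. Each is bound by the pseudouridine synthase dyskerin (DKC1) with NOP10, NHP2 and GAR1, and most are cut out of introns of host genes whose own transcripts may or may not code for protein.

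The sequences of the snoRNAs that carry most of the reads or differed most are printed here from the GRCh37 genome at the coordinates of the authors' transcript files, 5′ to 3′, as DNA letters. Capitals mark an ACA exactly 3 bases before the 3′ end and, in the central part of the RNA (its middle when cut in 3 equal parts), the match to ANANNA that lies nearest the centre. SNORA63, also known as E3, held more reads than any other member, and SNORA4 and SNORA81 lie in the same host, EIF4A2, on chromosome 3.
SNORA63 (chr3:186505088-186505222, plus strand): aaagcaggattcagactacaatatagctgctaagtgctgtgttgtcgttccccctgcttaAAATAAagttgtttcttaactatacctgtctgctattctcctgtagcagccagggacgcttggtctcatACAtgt
SNORA4 (chr3:186505402-186505538, plus strand): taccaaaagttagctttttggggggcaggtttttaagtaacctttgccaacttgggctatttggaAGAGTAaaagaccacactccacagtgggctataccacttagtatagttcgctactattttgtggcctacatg
SNORA81 (chr3:186504464-186504641, plus strand): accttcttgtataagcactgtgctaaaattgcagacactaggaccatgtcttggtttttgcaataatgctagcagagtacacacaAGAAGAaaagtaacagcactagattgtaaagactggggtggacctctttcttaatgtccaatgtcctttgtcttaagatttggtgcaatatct
SNORA24 and SNORA48 were among the members with most reads.
SNORA24 (chr4:119200345-119200475, plus strand): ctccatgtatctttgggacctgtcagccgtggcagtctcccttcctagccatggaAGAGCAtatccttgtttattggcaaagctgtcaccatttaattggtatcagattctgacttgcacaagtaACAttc
SNORA48 (chr17:7478031-7478165, plus strand): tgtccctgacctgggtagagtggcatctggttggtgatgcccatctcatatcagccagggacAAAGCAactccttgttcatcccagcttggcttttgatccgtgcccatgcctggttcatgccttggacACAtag
The members of the SNORA2 family sit in 1 host, KANSL2, and differed widely in level.
SNORA2A (chr12:49050431-49050565, minus strand): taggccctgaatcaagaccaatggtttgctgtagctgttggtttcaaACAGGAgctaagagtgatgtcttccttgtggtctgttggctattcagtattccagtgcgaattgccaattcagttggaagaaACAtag
SNORA2B (chr12:49061240-49061376, minus strand): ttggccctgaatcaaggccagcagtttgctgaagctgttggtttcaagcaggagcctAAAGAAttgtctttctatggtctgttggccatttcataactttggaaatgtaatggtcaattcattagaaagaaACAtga
SNORA2C (chr12:49048165-49048301, minus strand): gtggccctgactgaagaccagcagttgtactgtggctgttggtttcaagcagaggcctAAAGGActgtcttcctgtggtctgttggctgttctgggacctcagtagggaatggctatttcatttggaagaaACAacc
SNORA22, SNORA50A and SNORA54 were more than 2-fold higher in the SAF-A siRNA library at both times.
SNORA22 (chr7:65220513-65220646, plus strand): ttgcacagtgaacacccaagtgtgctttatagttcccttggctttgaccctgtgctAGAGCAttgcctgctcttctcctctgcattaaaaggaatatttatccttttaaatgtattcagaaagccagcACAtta
SNORA50A (chr16:58593700-58593835, minus strand): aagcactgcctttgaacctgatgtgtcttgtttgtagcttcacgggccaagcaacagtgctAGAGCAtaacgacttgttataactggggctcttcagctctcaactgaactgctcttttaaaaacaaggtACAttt
SNORA54 (chr11:2985001-2985123, minus strand): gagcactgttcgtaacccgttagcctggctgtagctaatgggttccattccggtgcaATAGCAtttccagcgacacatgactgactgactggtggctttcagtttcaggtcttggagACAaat
On the annotated strand, ACA stood exactly 3 bases before the annotated end in 83 of the 104 members (79.8%), and ANANNA was found in the central part of 99 (95.2%). Both were present in 78 members, compared with 12 of 64 other single-exon RNAs of 120 to under 150 nt (18.8%) and 0 of 253 C/D box snoRNAs. SNORA4 and SNORA81 had no ACA at that place as annotated, and a match by letters alone does not show a working box. Members were 121 to 250 nt long with a median of 134 nt, and 96 of them measured 120 to under 150 nt.

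Depth differed greatly between libraries, which bears on every 48 h result. About 28083822 reads were mapped in the control siRNA library at 24 h, 30701282 in SAF-A siRNA at 24 h, 28586051 in control at 48 h and 1216740 in SAF-A siRNA at 48 h. FPKM divides reads by an effective length, which for a RNA of the median length of 134 nt came to 6.24 nt. That figure, and all reads recovered from FPKM, rest on a model of fragments of 200 ± 80 nt, shortest 48 nt. The model was chosen because it gives whole reads, since the fragment settings are not given in the sources used. A single read on such an RNA was therefore worth 5.70, 5.22, 5.60 and 132 FPKM in the 4 libraries in that order, and the limit that a count of 0 allows (3 reads) was 17.1, 15.6, 16.8 and 395 FPKM. Intervals on ratios given below are exact 95% Clopper-Pearson intervals from the recovered reads, and they cover counting error only, since PCR copies cannot be told from separate molecules. HNRNPU itself, the targeted gene, measured 91.2 FPKM in control and 10.4 FPKM in SAF-A siRNA at 24 h, which is 11.4% of control. At 48 h it measured 84.6 and 9.24 FPKM, which is 10.9%.

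The H/ACA snoRNAs took a larger part of the SAF-A siRNA libraries than of the controls at both times. Their reads summed to 446 reads per 1000000 mapped reads in control at 24 h (95% interval 438 to 454) and 795 in SAF-A siRNA at 24 h (785 to 805). At 48 h the sums were 483 in control (475 to 491) and 1197 in SAF-A siRNA (1136 to 1260). The ratio of SAF-A to control was 1.78 at 24 h (1.74 to 1.82) and 2.48 at 48 h (2.34 to 2.61), and without SNORA63 it was 1.79 and 2.23. Between the control libraries the ratio of 48 h to 24 h was 1.08 (1.06 to 1.11), and between the SAF-A libraries it was 1.51 (1.43 to 1.59). The sum of the C/D box snoRNAs, the methylation guides, had SAF-A to control ratios of 1.65 at 24 h and 1.82 at 48 h. Taken one by one, the 26 C/D box snoRNAs with at least 100 reads had a median log2 difference of 0.48 at 24 h and -1.30 at 48 h, where 7 were at least 2-fold higher, 14 lower and 11 listed at 0 in SAF-A siRNA, beside 12.9% higher and 17.6% lower of all genes with as many reads. At 48 h their sum and their median thus differed in sign. The small Cajal body RNAs, which guide modification of spliceosomal RNAs, had ratios of 1.34 at 24 h and 0.792 at 48 h.

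Far fewer members had any read in the shallow SAF-A siRNA library at 48 h than in the other libraries. Reads were found for 90 members in control at 24 h, 95 in SAF-A siRNA at 24 h, 89 in control at 48 h and 64 in SAF-A siRNA at 48 h. At least 10 reads were found for 65, 69, 66 and 29 members in the same order. Of the 104 members, 97 averaged at least 1 FPKM over the libraries and were compared. The other 7 did not, and 6 of these had no read in any library. Since those values are so coarse, members with at least 100 reads summed over the 4 libraries are also given by themselves. There were 56 of these, a limit set after the values had been seen, and the other 48 members fell short of it.

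A few members held most of the reads. The 10 with most reads in each library took 61.3% of all member reads in control and 60.8% in SAF-A siRNA at 24 h, and 63.0% and 65.3% at 48 h. SNORA63 alone took 21.4%, 21.0%, 15.5% and 23.9%. It measured 14849 FPKM in control at 24 h, 25996 in SAF-A siRNA at 24 h, 11645 in control at 48 h and 44470 in SAF-A siRNA at 48 h. Both SAF-A libraries lay above both controls. The ratio of SAF-A to control was 1.75 at 24 h (1.67 to 1.84, from 2682 and 5133 reads) and 3.82 at 48 h (3.40 to 4.28, from 2141 and 348 reads). SNORA24, which guides pseudouridylation of the small ribosomal subunit RNA and lies in the noncoding gene SNHG8, measured 5137 and 9761 FPKM at 24 h and 6632 and 15993 FPKM at 48 h, in control and SAF-A siRNA. Its ratios were 1.90 (1.75 to 2.07) and 2.41 (1.96 to 2.93). SNORA48, in the translation initiation helicase gene EIF4A1, measured 3853 and 7247 FPKM at 24 h and 5167 and 11373 FPKM at 48 h. In both of these RNAs, too, both SAF-A libraries were above both controls.

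SNORA8 was different in that time alone went with as large a difference as the siRNA. It measured 2807 FPKM in control and 5469 in SAF-A siRNA at 24 h, and 5379 and 10247 FPKM at 48 h. The control at 48 h was thus as high as the SAF-A library at 24 h, with a ratio over time in the controls of 1.92 (1.73 to 2.12) beside SAF-A to control ratios of 1.95 (1.76 to 2.16) and 1.90 (1.52 to 2.36). SNORA17B, in an exon of a transcript of the noncoding gene SNHG7, had ratios of 1.43 (1.32 to 1.56) at 24 h and 2.25 (1.76 to 2.85) at 48 h. Of the remaining members with most reads, SNORA70 in RPL10, SNORA57 in CSKMT, SNORA7A in RPL32, and SNORA71A and SNORA71D in SNHG17 had ratios between 1.67 and 1.92 at 24 h. At 48 h the ratios were 1.54 for SNORA70 and 1.46 for SNORA57, and 2.49, 1.92 and 2.96 for SNORA7A, SNORA71A and SNORA71D.

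**Figure D1:**
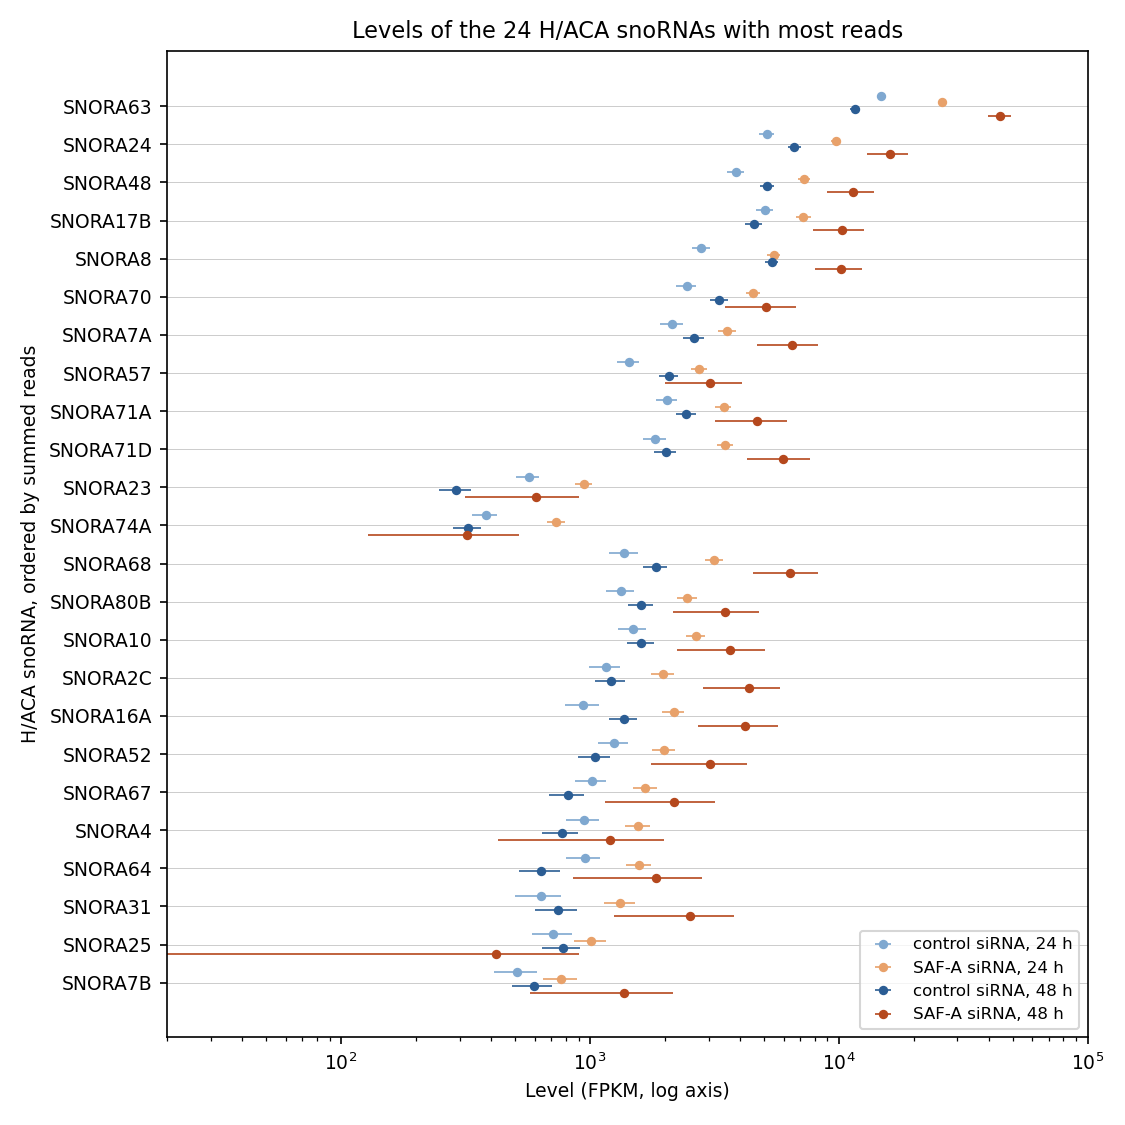
FPKM (log axis) of the 24 H/ACA snoRNAs with most reads in each of the 4 libraries, ordered by summed reads, with the 95% intervals deposited by the authors as bars (an interval reaching below 20 FPKM is drawn to the edge). SNORA63 lies above all the others shown in each library, and the bars of SAF-A siRNA at 48 h are wide because that library is shallow.

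At 24 h, where both libraries were deep, nearly all well-read members were higher in the SAF-A siRNA library. On the scale of log2(FPKM + 1), 55 of the 56 members with at least 100 reads were above 0, with a median difference of 0.78, an interquartile range of 0.69 to 0.99 and a full range from -0.10 to 2.77. The exact interval of the ratio lay above 1 for 50 of the 56 and below 1 for 0. Here and below, counts of such exact intervals are given for members only, without the share among other genes. The single member below 0 was SNORA81, whose span overlaps the annotated microRNA MIR1248. Since the limit on reads counts the SAF-A libraries too, the count was also made over the 54 members with at least 50 reads in the 2 control libraries together, a limit also set after the values had been seen, which leaves out SNORA2A and SNORA38B. Of these, 53 were above 0, with a median of 0.77 and a highest value of 1.92. The median over all genes tested was -0.06. Of RNAs of 100 to under 150 nt with at least 100 reads, 50 of 50 members and 16 of 16 others were above 0.

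Counted by a 2-fold call, 30 of the 97 members tested were higher and 3 lower at 24 h, beside 1.83% of all 11631 genes higher and 1.25% lower. The background among short RNAs was much larger: of 104 other RNAs of 100 to under 300 nt, 31.7% were 2-fold higher and 18.3% lower. The share of members called higher, 30.9%, was thus near that of other RNAs of their length, while the share called lower, 3.09%, was smaller. The 3 members called lower had few reads in the control and SAF-A libraries: 2 and 0 for SNORA11, 5 and 0 for SNORA16B, and 7 and 3 for SNORA77. When the deposited 95% intervals had to be separate as well, 16 members were higher and 1 lower, beside 0.688% and 0.267% of all genes. Among members with at least 100 reads, 14 of 56 were 2-fold higher and 0 lower, beside 0.564% and 0.270% of all genes with that many reads. Of 26 other RNAs of 100 to under 300 nt with that many reads, 30.8% were higher and 3.85% lower, and their median difference was 0.85.

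The largest positive differences at 24 h among members with separate deposited intervals were those of SNORA2A, SNORA17A, SNORA75, SNORA50A and SNORA38B. A limit of at least 10 reads in the better-read library applied. SNORA16B, lower from 5 and 0 reads, had separate intervals too but fell short of that limit. SNORA2A, in KANSL2, a gene for a subunit of the NSL histone acetyltransferase complex, had 44.3 FPKM in control (8 reads) and 309 in SAF-A siRNA (61 reads), a ratio of 6.97 (3.33 to 16.9). SNORA50A, in CNOT1, which encodes the scaffold of the CCR4-NOT deadenylase, had 151 and 546 FPKM (28 and 111 reads), a ratio of 3.63 (2.38 to 5.70). SNORA38B, in the ribosome biogenesis gene NOL11, had 109 and 371 FPKM (18 and 67 reads), a ratio of 3.40 (2.0 to 6.09). In all 3 the SAF-A value was above both control libraries. SNORA17A was different: it had 101 and 385 FPKM at 24 h, a ratio of 3.82 (2.26 to 7.01), but its control at 48 h, at 424 FPKM, was higher than its SAF-A value at 24 h. SNORA75, in the nucleolin gene NCL, had 31.3 and 119 FPKM from 6 and 25 reads, a ratio of 3.81 (1.53 to 11.4).

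At 48 h the picture split by depth of reading. Of 97 members, 41 reached a 2-fold higher level in SAF-A siRNA than in control and 28 a 2-fold lower one, beside 14.2% of all genes higher and 20.1% lower. Among the 104 other RNAs of 100 to under 300 nt, 18.3% were higher and 40.4% lower. With separate deposited intervals required as well, the members' counts were 23 and 11, beside 12.5% and 16.6% of all genes. Of the 28 called lower, 25 had no read in the SAF-A siRNA library. In all, 40 members had none there, 15 of which had none in control at 48 h either. None of the 40 exceeded, in control, the level that 3 reads would give in the shallow library, so no ratio is given for them. Had they been present at their control level, the expected number of reads was at most 1.8 for any one (SNORA53) and 8.62 for all 40 together. Such members therefore show no difference that this depth could detect one by one. The deposited interval of a value of 0 was also 0 to 0 for all 40, so separate intervals carry no weight for them. This holds for SNORA3B, SNORA65, SNORA78, SNORA51 and SNORA75, the members with the most negative values, for which between 12 and 24 reads in control at 48 h stood against 0.

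Members with at least 100 reads lay mostly above 0 at 48 h as well: 49 of 56, with a median of 1.20 and an interquartile range of 0.61 to 1.77, while the median of all genes tested was -0.12. The exact interval of the ratio was above 1 for 32 of the 56 and below 1 for 0. By the 2-fold call 36 were higher and 4 lower, beside 12.9% and 17.6% of all genes with that many reads and 46.2% and 3.85% of the 26 other RNAs of 100 to under 300 nt. The 4 lower members were SNORA6, SNORA33, SNORA53 and SNORA61, with 1, 1, 0 and 2 reads in the SAF-A siRNA library. Of RNAs of 100 to under 150 nt with at least 100 reads, 46 of 50 members and 16 of 16 others were above 0 at 48 h.

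The highest values at 48 h among members with separate intervals came from small numbers of reads. SNORA22, in the chaperonin pseudogene CCT6P1, had 247 FPKM in control and 1711 in SAF-A siRNA (44 and 13 reads), a ratio of 6.94 (3.43 to 13.1). SNORA37, in the gene for the methyl-CpG-binding protein MBD2, had 170 and 1073 FPKM (26 and 7 reads), a ratio of 6.33 (2.32 to 15.0). SNORA20, in the chaperonin gene TCP1, had 161 and 978 FPKM (27 and 7 reads), a ratio of 6.09 (2.24 to 14.3). The lower bounds of these ratios were above 2-fold in each case. For SNORA2A the values were 147 and 895 FPKM, with the same ratio and interval as SNORA20, since the reads were the same. SNORA50A had 269 and 1613 FPKM (51 and 13 reads), a ratio of 5.99 (2.99 to 11.2). SNORA38 had a still higher ratio of 7.34 (3.22 to 15.3, from 32 and 10 reads), but its 7 rows include alternative haplotypes of chromosome 6 and its summed deposited intervals overlapped. It was singled out after its value had been seen.

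Both times together gave 14 members that were at least 2-fold higher at 24 h and at 48 h with at least 10 reads in the better-read library of each pair. Without the limit on reads there were 16 of 97 (16.5%), beside 46 of 11631 genes (0.395%). The share at both times was not counted for other RNAs of 100 to under 300 nt. Taken by time, 31.7% of those were higher at 24 h and 18.3% at 48 h. Of the members 0 were lower at both times, and the share of genes lower at both was not counted. Of the 14, SNORA16A (SNHG12), SNORA20 (TCP1), SNORA22 (CCT6P1), SNORA2A (KANSL2), SNORA31 (TPT1), SNORA37 (MBD2), SNORA50A (CNOT1), SNORA54 (NAP1L4) and SNORA68 had separate deposited intervals at both times. For SNORA21 (RPL23), SNORA38B (NOL11), SNORA3A (RPL27A), SNORA5A (TBRG4) and SNORA71B (SNHG17) the intervals at 48 h overlapped. How many of all genes were higher with separate intervals at both times was not counted. SNORA68 and SNORA16A had the most reads of the 14. SNORA68 measured 1372 and 3152 FPKM at 24 h and 1836 and 6374 FPKM at 48 h, with ratios of 2.30 (1.98 to 2.69) and 3.47 (2.50 to 4.73). SNORA16A measured 941 and 2170 FPKM at 24 h and 1373 and 4212 FPKM at 48 h, with ratios of 2.31 (1.92 to 2.78) and 3.07 (2.05 to 4.45). SNORA54, in the nucleosome assembly gene NAP1L4, measured 467 and 1098 FPKM and then 507 and 2975 FPKM, with ratios of 2.35 (1.72 to 3.24) and 5.87 (3.17 to 10.3). In these 3 both SAF-A libraries were above both controls.

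Among the 56 members with at least 100 reads, 49 were above 0 at both times, 6 were above 0 at 24 h and below 0 at 48 h, and SNORA81 was below 0 at 24 h. SNORA74A, also known as U19, belongs to the 6, with 381 and 733 FPKM at 24 h and 323 and 322 FPKM at 48 h. Its ratio was 1.92 at 24 h (1.67 to 2.21) and 0.998 at 48 h (0.492 to 1.82, from 259 and 11 reads). Further members described early in the field were SNORA64 (U64, in RPS2), with ratios of 1.65 (1.36 to 2.01) and 2.89 (1.53 to 5.04), and SNORA62 (E2, in RPSA), with ratios of 1.89 (1.32 to 2.73) and 1.08 (0.218 to 3.31). The last of these rests on 3 reads in the SAF-A siRNA library at 48 h.

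**Figure D2:**
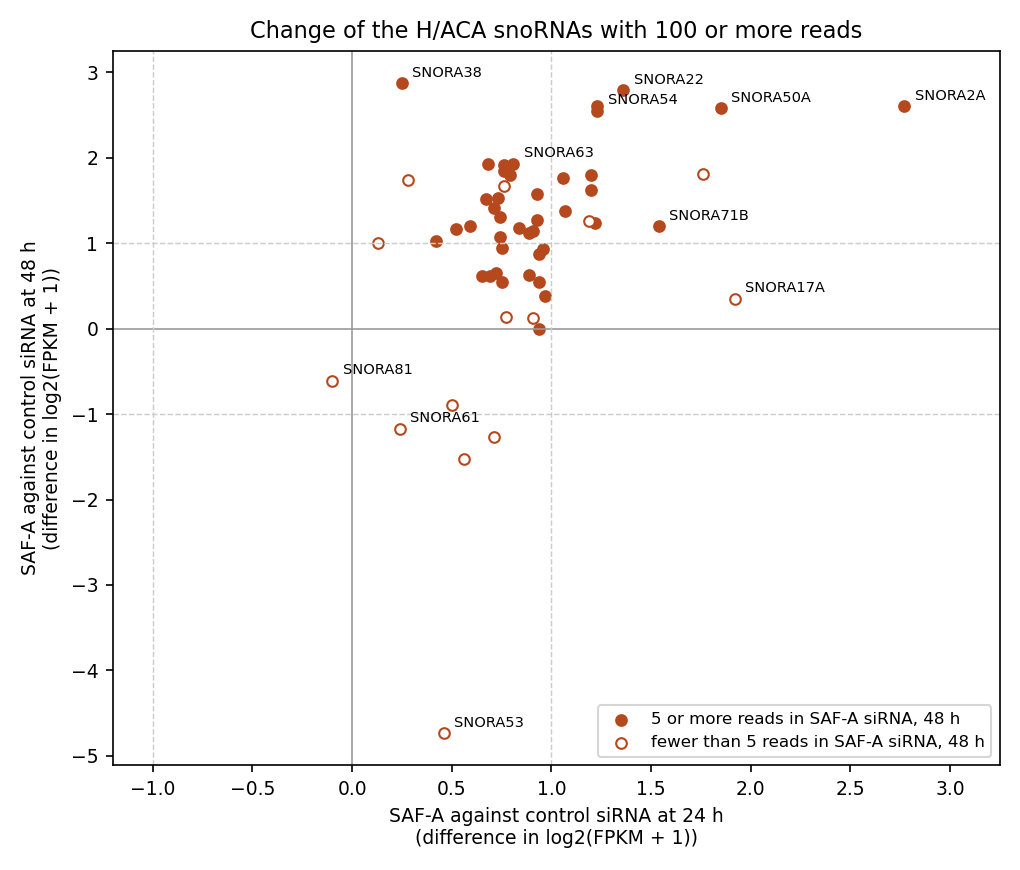
Difference in log2(FPKM + 1) between SAF-A and control siRNA at 24 h (horizontal) and 48 h (vertical) for the 56 H/ACA snoRNAs with at least 100 summed reads. Dashed lines mark 2-fold, and open points have fewer than 5 reads in the SAF-A siRNA library at 48 h. Both differences are above 0 for 49 of 56, and SNORA53, with no read in that library, lies lowest.

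Time by itself went with smaller differences under the control siRNA. From 24 h to 48 h, 12 of 97 members were 2-fold higher and 5 lower, beside 1.79% and 1.36% of all genes and 28.8% and 17.3% of other RNAs of 100 to under 300 nt. With separate deposited intervals the members' counts were 3 and 1, beside 0.610% and 0.447% of all genes. The median was 0.14 over members tested and 0.19 over those with at least 100 reads, of which 2 were 2-fold higher and 0 lower, beside 0.573% and 0.393% of all genes with that many reads and 3.85% and 11.5% of the 26 other RNAs of 100 to under 300 nt. These were SNORA17A, with 101 and 424 FPKM, a ratio of 4.21 (2.46 to 7.63), and SNORA2A, with 44.3 and 147 FPKM, a ratio of 3.32 (1.47 to 8.44). SNORA3B, in RPL27A, went from 37.5 to 147 FPKM (6 and 24 reads), a ratio of 3.93 (1.56 to 11.8). The exact interval of the ratio over time in the controls was above 1 for 15 of the 56 and below 1 for 7. SNORA63 was among the latter, with a ratio of 0.784 (0.741 to 0.830), and so was SNORA23, an RNA of 189 nt in the importin gene IPO7, which went from 567 to 290 FPKM (ratio 0.511, 0.427 to 0.611).

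Under SAF-A siRNA, 16 of 97 members were 2-fold higher and 34 lower at 48 h than at 24 h, beside 15.1% and 17.8% of all genes and 8.65% and 37.5% of other RNAs of 100 to under 300 nt. Of the 34, 30 had no read in the shallow library. With separate deposited intervals the counts were 5 and 16, beside 13.3% and 14.5% of all genes. When each library was rescaled to TPM, the higher count was 26, and the share of all genes was not counted on that scale. Among the 56 members with at least 100 reads, 11 were 2-fold higher and 5 lower, beside 13.7% and 15.1% of all genes with that many reads and 11.5% and 11.5% of the 26 other RNAs. Their median was 0.49. SNORA22, SNORA50A and SNORA54 had ratios over time of 2.85 (1.47 to 5.07), 2.96 (1.53 to 5.26) and 2.71 (1.51 to 4.55). SNORA1, SNORA28 and SNORA75 had between 25 and 30 reads at 24 h (29.5 for SNORA1, with a shared read counted in part) and 0 at 48 h. The upper limits of their ratios were 3.42, 3.30 and 4.01, so no difference was detectable. SNORA53, singled out after its value had been seen, had 115 reads at 24 h and 0 at 48 h, with an upper limit of 0.823 for the ratio.

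Most members lie inside a host gene. RefSeq places 95 of the 104 within a gene on the same strand, in 75 distinct hosts. Ribosomal protein or translation factor genes held 24, other protein-coding genes 52 and noncoding genes 19. Of the 9 without a RefSeq host, GENCODE places 6 (SNORA1, SNORA8, SNORA18, SNORA25, SNORA32 and SNORA40) in TAF1D, SNORA50C in SNHG25 and SNORA78 in SNHG9. Within RefSeq, 4 members overlap an exon of a host transcript: SNORA7A in RPL32, SNORA17A and SNORA17B in SNHG7, and SNORA31 in TPT1. Annotated microRNAs overlap SNORA2C (MIR1291), SNORA36A (MIR664B), SNORA36B (MIR664A), SNORA81 (MIR1248) and SNORA84 (MIR3651). The part of these overlaps in the members' values was not tested. The rows count any read in the span, so that mature snoRNA and unspliced host RNA cannot be told apart in them. No source used here states that reads were assigned by strand.

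Well-read members had a larger difference between SAF-A and control siRNA than their hosts in nearly every case. Of the 51 members with a host and at least 100 reads, 50 had a larger log2 difference than their host at 24 h, with medians of 0.79 for the members and -0.08 for the hosts. At 48 h this held for 48 of 51, with medians of 1.26 and -0.74. Between the control libraries it held for 30 of 51, with medians of 0.17 and 0.08. The difference was seen in each kind of host at 24 h: medians were 0.84 and -0.27 for noncoding hosts, 0.79 and -0.13 for other protein-coding hosts, and 0.77 and 0.15 for ribosomal protein or translation factor hosts. Hosts are longer than members. Among genes with at least 100 reads, the 24 h median was 0.93 for other RNAs of 100 to under 150 nt. It was -0.07 for those of 1000 nt or more. The part of length in these counts was not tested. At 24 h the 39 hosts ranged from -5.65 to 0.51, and the only one past 2-fold was RPL21P28, the host taken for SNORA27. RefSeq also places SNORA27 within the ribosomal protein gene RPL21, which GENCODE gives as its host. The pseudogene RPL21P28 was taken for its smaller span, so SNORA27 was counted among noncoding hosts. With the host of highest mean FPKM taken instead, the 24 h count was again 50 of 51. RPL21P28 had 57.8, 0.168, 168 and 0.389 FPKM in the 4 libraries, and since it is a near copy of a ribosomal protein gene its values are uncertain. SNORA27 itself measured 526 and 848 FPKM at 24 h and 552 and 843 FPKM at 48 h. Across the 51 members, whose hosts are partly shared and whose libraries are the same, Spearman's rho between the member's and the host's difference was -0.0100 at 24 h and 0.343 at 48 h. For levels in FPKM rho lay between 0.0159 and 0.174 in the 4 libraries.

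**Figure D3:**
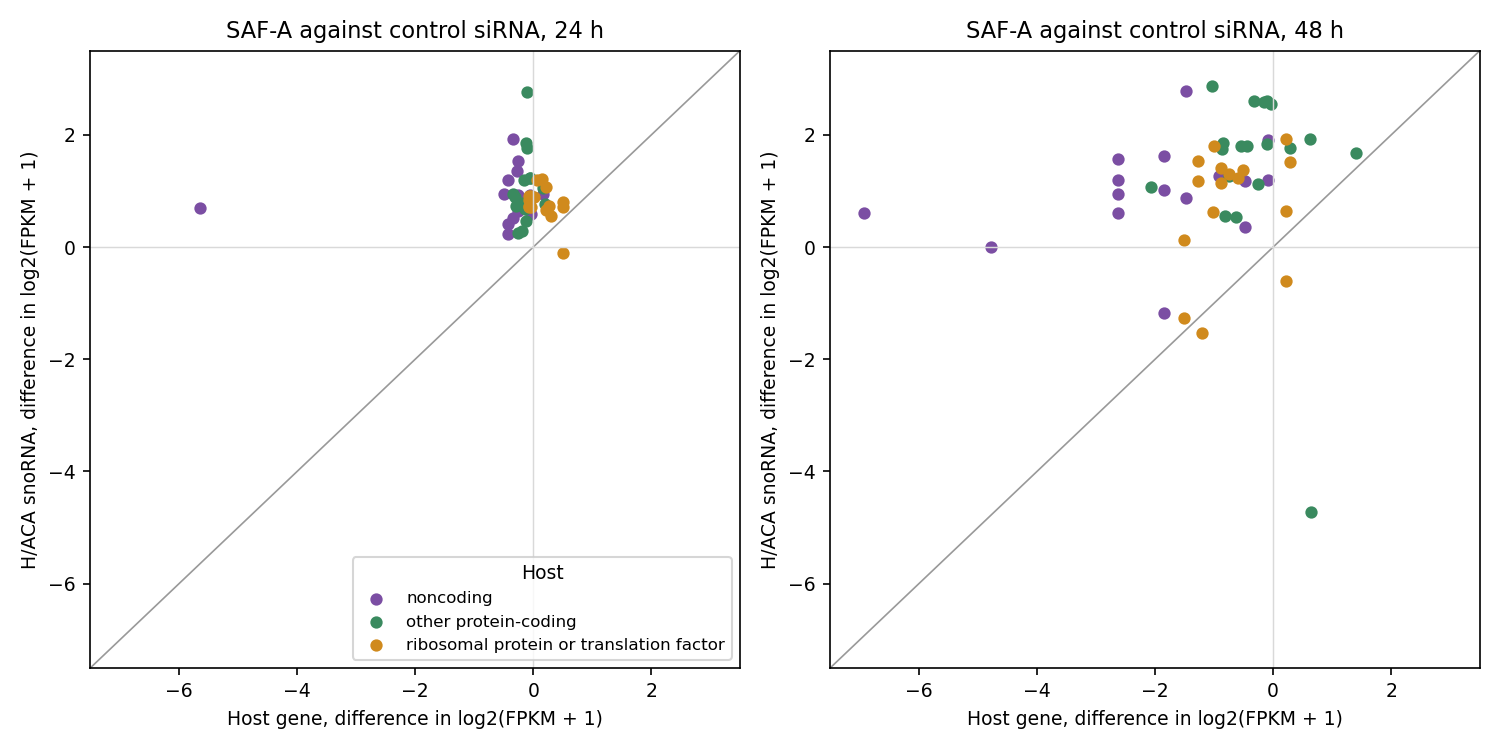
Difference in log2(FPKM + 1) between SAF-A and control siRNA for each of the 51 H/ACA snoRNAs with a host and at least 100 reads (vertical) against that of its host gene (horizontal), at 24 h and 48 h, coloured by kind of host. Points above the diagonal differ more than their host: 50 of 51 at 24 h and 48 of 51 at 48 h. The point far to the left at 24 h is RPL21P28, taken as host of SNORA27 although RPL21 also contains that member.

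In some hosts the members differed widely in level. The highest mean FPKM was 1.12 times the lowest in RPSA, 1.30 in DKC1, 1.88 in RPS2 and 1.93 in SNHG11, but far more in others. The DKC1 and SNHG11 values rest on too few reads to show similar levels. Summed over the 4 libraries, SNORA36A and SNORA56 in DKC1 had 8 and 6 reads, and SNORA60 and SNORA71E in SNHG11 had 2 and 1. EIF4A2 measured 124, 178, 136 and 157 FPKM in control and SAF-A siRNA at 24 h and then at 48 h. Its SNORA63 and SNORA4 had ratios of 1.75 and 1.65 (1.37 to 1.99) at 24 h, whereas SNORA81 had 0.935 (0.588 to 1.5), with 75.6 and 70.7 FPKM. SNORA81 overlaps the annotated microRNA MIR1248, and its recovered reads at 24 h, 39.2 and 40.1, were not whole. Its level and ratio may thus not be those of the snoRNA alone, which was not tested. The 24 h interval of SNORA81 lay below that of SNORA63 and overlapped that of SNORA4. At 48 h, with 1 read in SAF-A siRNA, the interval of SNORA81 (0.0161 to 3.88) overlapped both. The mean FPKM of SNORA63 was 374 times that of SNORA81, and its reads 88.6 times. KANSL2 measured 12.6, 11.5, 13.0 and 12.1 FPKM. Its SNORA2C had 1160, 1964, 1211 and 4340 FPKM and SNORA2B had 1 or 2 reads in 3 libraries and none in SAF-A siRNA at 48 h, a range of 428 times in mean FPKM. SNORA2A, between them in level, had a higher 24 h ratio, 6.97 beside 1.69 (1.43 to 2.0) for SNORA2C, and the intervals did not overlap. The 6.97 rests on 8 reads in control. At 48 h the ratios were 6.09 (2.24 to 14.3) and 3.58 (2.45 to 5.10), and the intervals overlapped. All 3 SNORA2 members were identical at 73.9% of aligned positions in each pair.

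SNHG17 carries SNORA71A, SNORA71B, SNORA71C and SNORA71D and measured 4.89, 3.92, 5.19 and 0 FPKM. At 24 h the ratios of its members were 1.69 (1.49 to 1.91), 2.91 (2.07 to 4.07), 1.57 (1.22 to 2.03) and 1.91 (1.68 to 2.17), and the interval of SNORA71B did not overlap that of SNORA71A or SNORA71C. At 48 h the interval of SNORA71B (0.969 to 4.79) overlapped those of SNORA71A (1.36 to 2.66) and SNORA71C (0.645 to 3.11). SNHG12, at 34.8, 25.8, 30.4 and 7.68 FPKM, carries SNORA16A with a ratio of 2.31 (1.92 to 2.78), SNORA44 with 1.34 (0.905 to 2.01) and SNORA61 with 1.18 (0.837 to 1.67). The interval of SNORA16A lay above that of SNORA61, and did so at 48 h too (2.05 to 4.45 beside 0.0530 to 1.64). In TBRG4, a mitochondrial RNA-processing gene at 33.1, 29.5, 37.5 and 21.9 FPKM, SNORA5A had a ratio of 2.29 (1.52 to 3.51), SNORA5C 2.93 (1.02 to 10.2) and SNORA5B 1.22 (0.206 to 8.33), and the intervals overlapped. Differences between members of a host were not tested beyond these counting intervals.

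Some members may share reads with a near copy or an overlapping transcript. With the effective lengths used, 303 of 338 values above 0 (89.6%) came out within 0.05 of a whole number of reads. The fragment settings behind those lengths were chosen to give whole reads, so this share is no independent check of them. The rest belonged to 16 members, of which 9 had values 0.5 reads off a whole number, as arises when a read matching 2 places is divided between them. The other 7 had other fractions. Of these, SNORA7A, SNORA17A, SNORA17B and SNORA31 overlap a host exon, and SNORA81 and SNORA84 overlap a microRNA. The part of those overlaps in the fractions was not tested. SNORA7A and SNORA7B, identical at 98.6% of positions, and SNORA80A and SNORA80B, at 91.9%, were among the 16, so the split between such partners is uncertain. SNORA7B measured 511 and 767 FPKM at 24 h and 596 and 1366 FPKM at 48 h. GC content of the 104 members had a median of 49.1% and ran from 32.3% to 72.4%. Over the 56 with at least 100 reads, Spearman's rho between GC content and the 24 h difference was 0.0713.

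The genes for H/ACA proteins and for snoRNA maturation formed a list of 22, chosen by function. At 24 h 0 of the 22 were past 2-fold, beside 1.83% of all genes higher and 1.25% lower, and their median was -0.11, beside -0.06 for all genes. The catalytic subunit gene DKC1 measured 49.6 and 40.6 FPKM at 24 h and 47.2 and 32.9 FPKM at 48 h. NOP10 measured 108 and 131 FPKM and then 115 and 201 FPKM. NHP2 measured 78.9 and 82.3 FPKM and then 87.2 and 35.6 FPKM, and GAR1 14.1 and 12.6 FPKM and then 13.4 and 9.19 FPKM. Of these 4 core genes, NHP2 at 48 h was the only one past 2-fold, with a log2 difference of -1.27. At 48 h, 3 of the 22 genes were higher and 4 lower, beside 14.2% and 20.1% of all genes. The higher ones were the assembly factor genes RPAP3 (1.04) and ZNHIT3 (1.18) and the exonuclease gene XRN2 (1.48). The lower ones besides NHP2 were the assembly factor genes NAF1 (-2.11, with 0 FPKM in the shallow library) and NOLC1 (-1.45) and the 3′ end trimming gene TOE1 (-1.61).

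RNA length moved with the 24 h difference. Among genes with at least 100 reads, the median log2 difference at 24 h was 0.80 for the 50 members and 0.93 for the 16 other RNAs of 100 to under 150 nt. It was 0.70 for 6 other RNAs of 200 to under 300 nt, 0.22 for 93 RNAs of 300 to under 500 nt, 0.08 for 562 of 500 to under 1000 nt and -0.07 for 11467 of 1000 nt or more. Below this range, 21 RNAs of 60 to under 100 nt had a median of 0.09. At 48 h the median was 1.25 for members and 1.25 for other RNAs of 100 to under 150 nt. The few longer RNAs gave other values at 48 h. It was 0.12 for 3 members and 1.87 for 4 other RNAs of 150 to under 200 nt, and -0.00 for 3 members and 0.35 for 6 other RNAs of 200 to under 300 nt. RNAs of 60 to under 100 nt had a median of -9.46 and those of 300 to under 500 nt one of -0.86. A value of 0 in the shallow library leaves the difference set by the pseudocount, so the -9.46 is not a fold. None of these differences was tested. Column purification of RNA, used here per the labels, recovers small RNAs less well than long ones, and the part of such recovery, or of size selection of the libraries, in the snoRNA values was not tested.

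**Figure D4:**
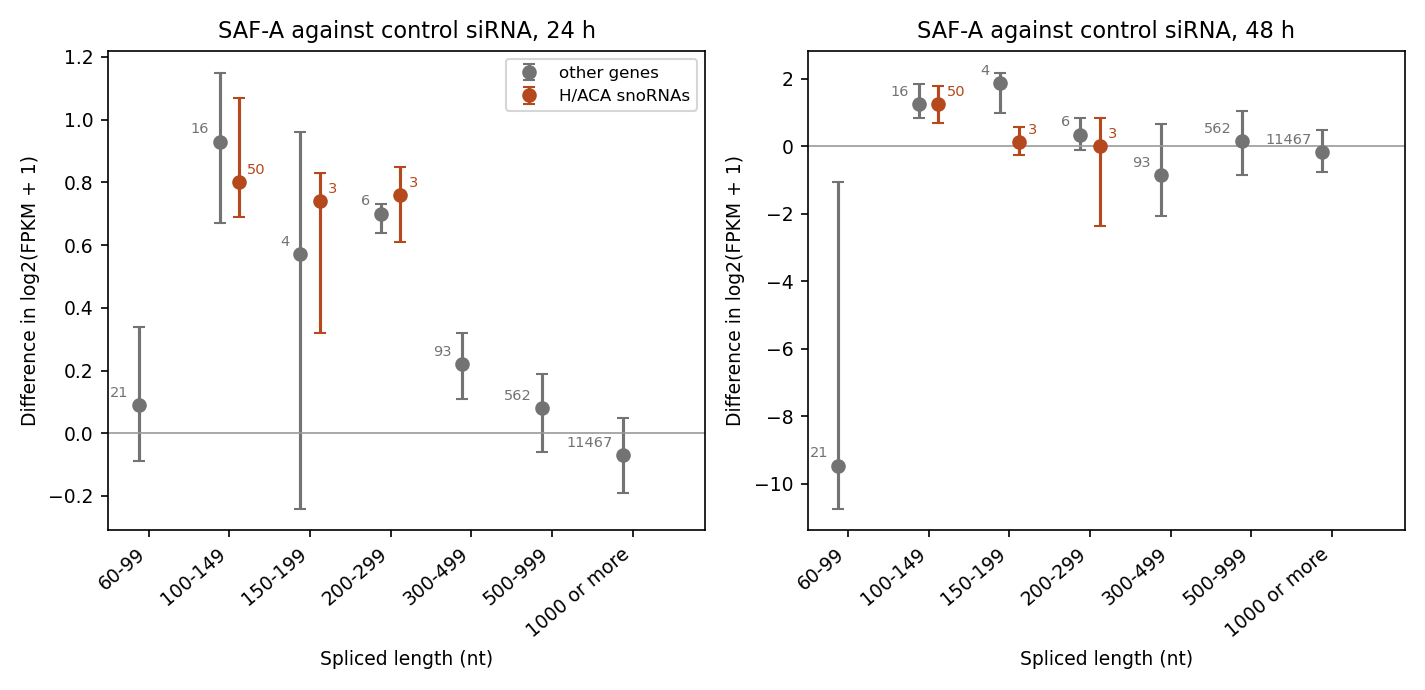
Median difference in log2(FPKM + 1) between SAF-A and control siRNA by spliced length, at 24 h and 48 h, for H/ACA snoRNAs and other genes with at least 100 summed reads. Bars show the interquartile range, numbers beside points are the numbers of genes, and the vertical scales of the panels differ. At 24 h the 100 to under 150 nt class has medians of 0.80 for H/ACA snoRNAs and 0.93 for other RNAs.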

How the data were processed

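The processed data of 4 RNA-seq libraries were used, with 50-base single-end reads from total RNA depleted of ribosomal RNA, per the labels' protocols. The submitters' processing notes name TopHat2 2.0.10, Bowtie2 2.1.0, Cufflinks 2.2.1 and the genome hg19. The authors deposited a gene table and a transcript file per library with FPKM and its 95% bounds. The transcript files also hold a score column deposited by the authors, which was not used.

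RefSeq accessions were matched to symbols (97.1% of 47338 rows), and FPKM was summed per symbol. Mapped reads per library were derived from the deposited coverage and FPKM, and reads per member from FPKM, that depth and an effective length (fragments of 200 ± 80 nt, shortest 48 nt). The fragment settings are not given in the sources used here, and this model was chosen because it makes short RNAs come out as whole reads. Depth ran from 1216740 to 30701282 mapped reads. Differences are in log2(FPKM + 1), which understates those of low genes, for all genes that averaged 1 FPKM or more. Called means at least 2-fold. With 1 library per group no test was made, and intervals cover counting error alone. The call was tested on simulated data with many more reads per gene than most members had. That test therefore does not bear on calls made from few reads. The host is the smallest RefSeq gene of at least 300 nt spliced length that contains the member on its strand, and GENCODE 44 on the same build named hosts without a matched symbol. Named members were the 10 with most reads, the largest changes with separate intervals and at least 10 reads, members called at both times, classically described ones and those of the hosts with most members. SNORA73A and SNORA73B were not analysed here. Further ones were singled out after their values were seen and are described with their reads. Members and lists were chosen with earlier results of these data known. Alternatives changed the pseudocount, filters, scaling, call and choice of host. Python 3.11.15 with pandas 2.3.3, scipy 1.17.1 and Biopython 1.88 was used.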

Additional observations from a re-analysis of the deposited data

Results flagged for a closer look

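Among members counted as 2-fold changed in opposite directions at 24 h and 48 h, SNORA1, SNORA75 and SNORA78 stood out by their values. They were higher in SAF-A siRNA at 24 h, by 1.28, 1.90 and 1.30 in log2(FPKM + 1), and listed at 0 in SAF-A siRNA at 48 h, where the differences were -5.77, -6.08 and -6.40. The last 3 values are set by the pseudocount and are not folds, and the reads expected there at the control level were 0.4, 0.6 and 0.5. The difference between the times was not tested.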

How the results depend on the processing

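No paired analysis was possible because the groups share fewer than 2 replicate numbers, with 1 library each; a pairing of siRNAs by time was not fitted. Of 162 values recomputed, 114 stayed close to those reported. Shares of all genes were counted only for the 2-fold call as reported, separate intervals and at least 100 summed reads, and stand in the sections above. Member counts at every other setting below have no such share beside them, so they do not show how members differ from other genes. At 24 h, where 30 members were higher and 3 lower, deposited intervals that must not overlap left 16 and 1, a 1.5-fold call gave 66 and 7, at least 100 summed reads gave 14 and 0, and at least 50 reads over the 2 control libraries (54 members) gave 12 and 0. The lower count was 1 when members had to average 10 FPKM and 0 with 10 reads in the better-read library. The 24 h median, 0.77 as reported, was 0.52 with 21 higher and 4 lower when centred on RNAs under 300 nt. With TPM it was 0.58 with 27 higher and 4 lower. Centred on genes of at least 300 nt it was 0.83 with 37 higher and 3 lower. At 48 h, where 41 were higher and 28 lower with a median of 0.61, separate intervals left 23 and 11. The lower count was 9 with 10 reads and 4 with 100 reads or with 50 control reads. The median was 0.94 over members averaging 10 FPKM, 1.13 with 10 reads, 1.20 with 100 reads and 1.19 with 50 control reads. Centred on all RNAs under 300 nt, whose own median was -2.50, it was 3.11 with 71 higher. That centre includes RNAs listed at 0 in the shallow library, whose differences are set by the pseudocount. Under control siRNA over time (12 and 5), separate intervals left 3 and 1, 1.5-fold gave 21 and 11, 100 reads gave 2 and 0, 50 control reads gave 1 and 0, and 10 reads gave 7 and 1. A pseudocount of 10 gave 6 higher, and an average of 10 FPKM gave 2 lower. Under SAF-A siRNA over time (16 and 34, median 0.09), separate intervals left 5 and 16, and 1.5-fold gave 32 higher. The lower count was 13 with 10 reads and 5 with 100 reads, with medians of 0.44 and 0.49, and 50 control reads gave 10 and 5 with a median of 0.49. In this comparison the balance turned with the setting: with 100 reads, 11 were higher and 5 lower. TPM gave 26 higher. Centring on short RNAs, a centre with the same limit, gave 63 higher and 25 lower with a median of 1.85. Centring on genes of at least 300 nt gave a median of -0.03. Rescaling to TPM shifted the median of all genes to -0.22 at 24 h. The count of members with a larger difference than their host at 24 h was 28 of 28 with 10 reads in every library. It was 76 of 88 over all tested members. Filters and separate intervals lower counts by construction, and the cause of the other shifts was not tested. Depth limits the 48 h values: 40 members had no read in SAF-A siRNA.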
